A study of Mus musculus with 22 samples.

Results

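The 9 genes described here encode the receptors, ligand subunits, extracellular inhibitor and intracellular adaptor through which activins and TGF-beta act on a cell: the type I receptors Acvr1c and Acvr1b, the type II receptors Acvr2a and Acvr2b, the coreceptor Tgfbr3, the activin subunits Inhba and Inhbb, the activin-binding protein Fst and the kinase adaptor Tab3. They were chosen by symbol, matched to Ensembl identifiers, and found in both deposited count tables, which hold 27124 genes at E14.5 and 27504 genes at P9. After genes with few counts were left out, 7 of the 9 could be tested at each age: Inhba and Fst had too few counts at E14.5, and Inhbb and Fst at P9.

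Activins are dimers of inhibin beta subunits. They bind a type II receptor, which recruits and phosphorylates a type I receptor, and this in turn phosphorylates SMAD2 and SMAD3, which enter the nucleus and change transcription. Acvr1c encodes ALK7, a type I receptor found mainly in endocrine and fat cells that also serves Nodal and some growth and differentiation factors, whereas Acvr1b encodes ALK4, the widely expressed activin type I receptor. Follistatin, the product of Fst, traps activins outside the cell, betaglycan, the product of Tgfbr3, presents TGF-beta and inhibin at the cell surface, and TAB3 couples receptors to the kinase TAK1. In islets this pathway is known for its influence on beta cell identity and insulin secretion.

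RNA was sequenced from endocrine cells of the mouse pancreas that carried the red reporter tdTomato and were sorted by flow cytometry, with 100 cells in each of 22 libraries. Isl1CKO mice were Isl1 f/f; Neurod1-Cre; Ai14 tdTomato, so that the transcription factor ISL1 was deleted wherever the Neurod1-Cre transgene was active, and the labels call these libraries Isl1 knockout. The controls, called WT in the labels, were Isl1 f/+; Neurod1-Cre; Ai14 tdTomato and thus carried Cre, the reporter and 1 floxed Isl1 allele as well. There were 6 control and 5 Isl1CKO libraries in embryos at E14.5 and 5 control and 6 Isl1CKO libraries at postnatal day 9 (P9, from pups aged P9 to P10), from littermates of both sexes; the study calls the libraries biological replicates, and whether each came from a separate animal is not given, so p-values measure the spread between libraries. Embryonic pancreata were dissociated with trypsin alone and postnatal ones with collagenase first, so age and dissociation cannot be told apart.

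The libraries held between 8477482 and 13580985 counts. Isl1 itself fell in Isl1CKO at E14.5 (log2 fold change -0.48 ± 0.079 (SE), adjusted p = 0.0063, edgeR) and was higher at P9 (1.08 ± 0.21, adjusted p = 0.0081), but these counts sum all of its exons, including those outside the deleted part, and so do not check the deletion. Hormone transcripts differed greatly at P9, where the 9 beta cell markers summed to between 427528 and 537512 CPM (reads of a gene scaled to a fixed library size) in controls and to between 137496 and 275608 in Isl1CKO. Levels were therefore scaled by the trimmed mean of M values (TMM), under which the median gene moved by 0.023 on the log2 scale at P9. This scaling places the bulk of genes near 0 by design, so that value does not check the choice. Scaling by total counts shifted it by 0.68, and directions that depend on this choice are named below. Sums of the endothelial markers, 7 of 7 in the P9 table with none at 0 in either group, were 2.41 to 7.89 CPM in P9 controls and 14.8 to 29.8 CPM in P9 Isl1CKO, and sums of the 7 mesenchymal markers were 4.46 to 48.7 CPM over the P9 libraries, highest in control libraries 3 and 4. Other lists moved with genotype at P9 as well: the 7 alpha cell markers summed to 17516 to 65324 CPM in controls and 7218 to 9718 in Isl1CKO, the PP cell marker to a median of 16834 and 533 CPM, the 5 duct markers to 142 to 181 and 245 to 653 CPM, and the 4 endocrine progenitor markers to 41.7 to 83.6 and 228 to 1114 CPM. The 4 delta cell markers summed to medians of 605 CPM in controls and 1385 CPM in Isl1CKO, with ranges that overlapped (256 to 1000 and 762 to 2456 CPM). Single markers did not all follow these sums. At P9, 2 of 7 alpha cell markers were called higher and 3 lower, against 2.66% and 2.14% of all genes. Of the tested markers, 0 of 5 for duct, 0 of 2 for endothelium and 1 of 3 for endocrine progenitors were called higher. For delta cells, 1 of 3 tested markers was called higher and 1 lower. At E14.5 the alpha cell sums had medians of 20326 CPM in controls and 13778 CPM in Isl1CKO, and the 4 delta cell markers of 4895 and 2322 CPM. The beta cell sums had medians of 19100 and 9859 CPM and the duct sums of 597 and 772 CPM. For these E14.5 lists the ranges of the genotypes overlapped. Of the tested markers, 2 of 7 for alpha cells were called lower and 1 higher. For beta cells 1 of 9 and for delta cells 1 of 3 were called lower. For duct 1 of 5 and for endocrine progenitors 1 of 4 were called higher, against 1.43% of all genes in either direction. Endocrine progenitor sums were 209 to 383 CPM in E14.5 controls and 400 to 551 CPM in E14.5 Isl1CKO. The part of these lists in the results below was not tested. In sorted pools, fewer cells of a type and less RNA per cell cannot be told apart.

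Promoter sequence is shown for both type I receptors, because one of them changed in Isl1CKO and the other was not called, and for Inhba, the only one of the genes with a window in which the homeodomain core motif was found. Windows of 250 bases before to 50 bases after the start, from RefSeq (GRCm38.p6), were found for 7 of the 9 genes. Only the bases before every annotated start are printed, 5′ to 3′ on the gene's own strand, with TAAT or its reverse complement ATTA in capitals.
Acvr1c, chr2:58357896-58358008, minus strand: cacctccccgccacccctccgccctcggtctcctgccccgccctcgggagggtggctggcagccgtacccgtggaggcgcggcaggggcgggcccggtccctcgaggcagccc
Acvr1b, chr15:101173822-101174066, plus strand: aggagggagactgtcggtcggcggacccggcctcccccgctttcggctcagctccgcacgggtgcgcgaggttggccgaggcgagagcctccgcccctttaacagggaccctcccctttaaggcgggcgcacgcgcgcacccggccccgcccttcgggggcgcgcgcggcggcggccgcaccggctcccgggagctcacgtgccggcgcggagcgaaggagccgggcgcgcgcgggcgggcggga
Inhba, chr13:16011601-16011850, plus strand: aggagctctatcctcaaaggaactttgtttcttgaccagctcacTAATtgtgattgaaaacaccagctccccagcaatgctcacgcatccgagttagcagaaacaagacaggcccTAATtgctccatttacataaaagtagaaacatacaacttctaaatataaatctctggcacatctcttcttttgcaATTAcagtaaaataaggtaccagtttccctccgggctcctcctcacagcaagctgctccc

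The Acvr1c stretch was 80.5% G and C and the Acvr1b stretch 78.8%, against 43.2% for Inhba. Neither type I receptor had TAAT or ATTA in its window, also not in the further Acvr1c window at an internal start, and the same held for Inhbb, Acvr2a, Acvr2b and Tab3. Inhba had 3 matches, counted by start position on both strands. Of all 32851 RefSeq windows of this length, 58.0% held at least 1 match. The SMAD-type motif CAGAC or its reverse complement GTCTG was present once each in the windows of Acvr2a, Acvr2b and Tab3 and absent from the others, while 49.6% of all windows held it. These are matches of letters in a short window and do not show binding.

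Acvr1c was the one gene of the set that passed the test in the comparison of genotypes, and it did so at both ages. It lies on the minus strand at chr2:58267453-58357895 (GRCm38). At E14.5 the TMM-scaled counts in the 6 controls ranged from 575 to 1356 with a median of 1131. The 5 Isl1CKO libraries had 137, 139, 46.6, 98.7 and 7.0 scaled counts. Every Isl1CKO library was below every control, and Isl1CKO library 5, with 8 reads, stood far below the other four. The mean fell from 1039 ± 294 (SD, n = 6) to 85.7 ± 57.8 (n = 5), and the fitted change was -3.61 ± 0.49 (SE) on the log2 scale, a 12.2-fold lower level (adjusted p = 0.0012, edgeR's quasi-likelihood test with Benjamini-Hochberg adjustment over 15960 genes). In this comparison 1 of 7 tested genes of the set was called, against 1.43% of all genes, and 1 of 7 had lower groups that did not overlap, against 1.29%. By size of change, Acvr1c ranked 8 among the 132 genes called lower.

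Acvr1c was also lower after birth, beside the lower sums of alpha, beta and PP cell markers given above. The delta cell sums had a higher median in Isl1CKO, but they overlapped and their tested markers were called in both directions. At P9 the 5 control libraries had 235, 356, 616, 296 and 446 scaled Acvr1c counts. The 6 Isl1CKO libraries ranged from 2.84 to 30.6 with a median of 11.9, on 4 to 32 reads each. The groups were again far apart: the highest Isl1CKO library was below the lowest control by a wide margin. The mean fell from 390 ± 149 (n = 5) to 14.6 ± 12.6 (n = 6), a log2 fold change of -4.73 ± 0.61 or 26.6-fold (adjusted p = 3.5e-04). Again 1 of 7 tested genes of the set was called, against 4.81% of all genes. Non-overlapping lower groups were found for 1 of 7, against 2.57%. Leaving out any one library kept the change between -5.08 and -4.51 at P9 and between -3.86 and -3.30 at E14.5, with adjusted p at most 0.0050. Without control libraries 3 and 4, which had the most mesenchymal markers, the P9 change was -4.57. Reads from the antisense gene Gm13544, which shares 168 exon bases (1.81% of the Acvr1c exons), cannot be told apart there, because counting ignored strand; that gene had 154 counts over all E14.5 libraries and 25 over all P9 libraries.

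**Figure D1:**
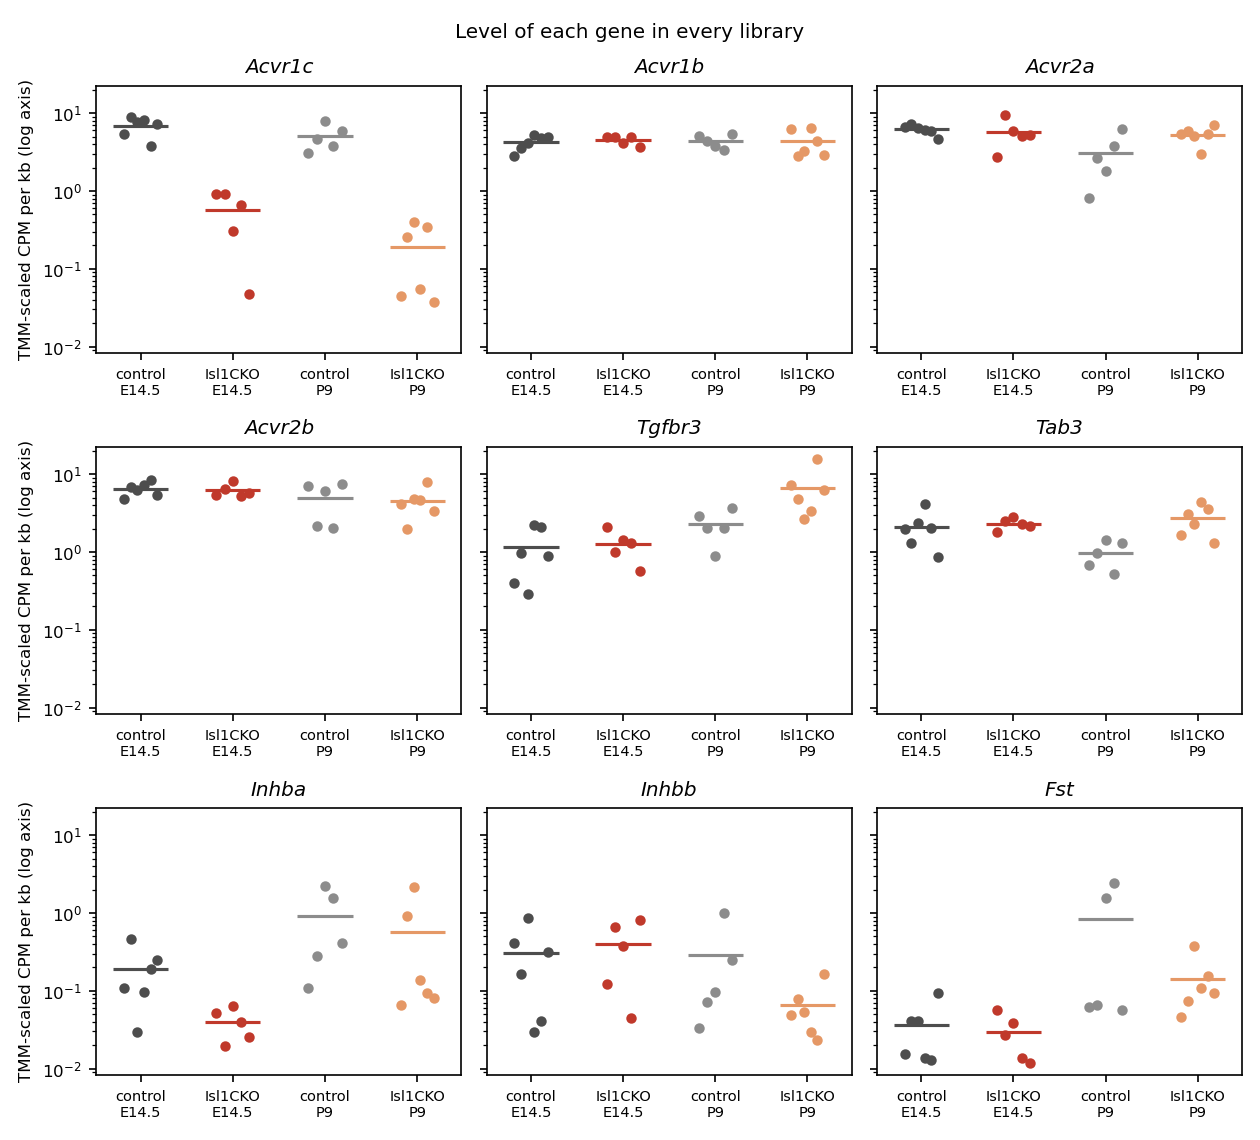
Level of each of the 9 genes in every library, as TMM-scaled CPM per kilobase of exon on a log axis, with points for libraries and a line at the mean of each of the 4 groups. Acvr1c was at 3.82 to 8.95 in E14.5 controls and at 0.047 to 0.93 in E14.5 Isl1CKO, while Acvr1b stayed between 2.81 and 6.48 in all groups.

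Acvr1b, on chr15:101174067-101213684, showed no such difference. At E14.5 its scaled counts were 200.4 to 370 in controls (median 320.2) and 357, 351, 295, 353 and 259 in Isl1CKO. At P9 the controls had 186, 164, 141, 124 and 194, and Isl1CKO ranged from 103 to 239.6 (median 141). The groups overlapped at both ages. The changes were 0.089 ± 0.18 at E14.5 (adjusted p = 0.92) and -0.020 ± 0.33 at P9 (adjusted p = 0.99), and the P9 value became 0.64 when libraries were scaled by total counts.

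Because both type I receptors were read from the same libraries, their ratio is free of scaling. The log2 ratio of Acvr1c to Acvr1b counts (1 added to each) was 1.74 ± 0.56 (SD, n = 6) in E14.5 controls and above 0 in each of them, from 0.73 to 2.38. In E14.5 Isl1CKO it was -1.37, -1.33, -2.64, -1.83 and -5.04. The ratio was thus below 0 in every Isl1CKO library. The difference was -4.19 ± 0.73 (SE, exact two-sided permutation test, p = 0.0043, the smallest these group sizes allow). Counts were not corrected for exon length (9292 bases for Acvr1c and 4418 for Acvr1b), so a ratio of 0 does not mark equal levels. At P9 the ratio was 0.33, 1.12, 2.12, 1.25 and 1.19 in controls and ranged from -5.71 to -1.94 in Isl1CKO, a difference of -5.03 ± 0.76 (exact permutation p = 0.0043). Per kilobase of exon, Acvr1c made up 61.2% ± 9.3 (SD) of the summed Acvr1b and Acvr1c level in E14.5 controls and 10.3% ± 6.2 in Isl1CKO. At P9 these shares were 52.3% ± 10.7 and 4.87% ± 4.5. The lowest share in a control library was 44.2% at E14.5 and 37.5% at P9.

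**Figure D2:**
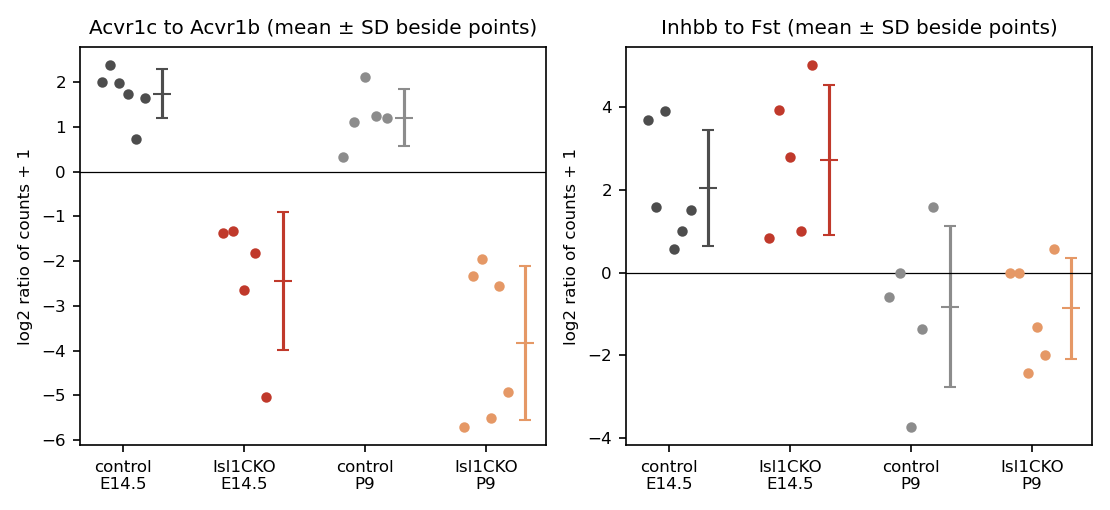
Log2 ratio of counts (1 added to each) of Acvr1c to Acvr1b and of Inhbb to Fst in every library of the 4 groups, with the mean and SD beside the points. The Acvr1c to Acvr1b ratio was above 0 in all 11 control libraries and below 0 in all 11 Isl1CKO libraries, while the Inhbb to Fst ratios of the genotypes overlapped at both ages. Counts were not corrected for exon length, so 0 does not mark equal levels.

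The type II receptors, which bind activins directly, were not called at either age. Acvr2a, on chr2:48814109-48903269, had 432 to 670.3 scaled counts in E14.5 controls (median 579) and 255, 858, 549, 469 and 475 in Isl1CKO. At P9 the controls had 38.4, 127, 87.2, 182 and 296, and Isl1CKO ranged from 142 to 327 (median 256). Control library 1 was the lowest at P9 and the groups overlapped. The changes were -0.13 ± 0.23 at E14.5 (adjusted p = 0.90) and 0.77 ± 0.42 at P9 (adjusted p = 0.39). Under total-count scaling, where 28.5% of all genes were called, the P9 change was 1.46 (adjusted p = 0.020). Acvr2a shares 446 exon bases, 7.84% of its exons, with Orc4 on the opposite strand, and reads there cannot be assigned by strand.

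Acvr2b, on chr9:119402118-119434995, had 307 to 537 scaled counts in E14.5 controls (median 419.9) and 349.7, 411, 522, 336 and 358 in Isl1CKO. At P9 the controls split into 3 libraries at 203 to 241 and 2 at 67.9 and 70.5, and Isl1CKO ranged from 63.7 to 258 (median 145). The changes were small beside their errors, -0.065 ± 0.17 at E14.5 (adjusted p = 0.94) and -0.16 ± 0.44 at P9 (adjusted p = 0.92). The P9 change was 0.51 under total-count scaling.

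Among the 7 genes tested at P9, Tgfbr3 and Tab3 had the next largest changes and neither passed the test. Tgfbr3, on chr5:107106570-107289629, encodes the coreceptor betaglycan. Its P9 scaled counts were 158, 109.5, 48.8, 111 and 198 in controls and ranged from 147 to 847 (median 299) in Isl1CKO. Of the 6 Isl1CKO libraries, 4 were above every control. The change was 1.53 ± 0.46 (adjusted p = 0.072, edgeR). DESeq2 gave an adjusted p of 0.021, in a test that called 9.11% of all genes, and total-count scaling gave 0.0041. Tgfbr3 is also made by mesenchymal and endothelial cells. The endothelial marker sums, 2.41 to 7.89 CPM in P9 controls and 14.8 to 29.8 CPM in P9 Isl1CKO, moved with genotype beside it. So did the duct sums (142 to 181 and 245 to 653 CPM) and the endocrine progenitor sums (41.7 to 83.6 and 228 to 1114 CPM). Isl1CKO library 5, with 847 scaled Tgfbr3 counts, had endothelial and progenitor sums of 17.3 and 1114 CPM. Isl1CKO library 3, with 147, had 25.4 and 301 CPM. The part of these lists in the result was not tested. At E14.5 the values were 30.2 to 233 in controls (median 98.6) and 223, 104, 150.4, 137 and 59.5 in Isl1CKO, a change of 0.15 ± 0.50 (adjusted p = 0.95).

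Tab3, on the X chromosome at chrX:85574022-85634469, encodes an adaptor that activates TAK1. At P9 the controls had 37.2, 52.9, 79.0, 29.3 and 71.6 scaled counts, and Isl1CKO ranged from 71.1 to 242 (median 149). Here 5 of the 6 Isl1CKO libraries were above every control. The change was 1.47 ± 0.44 (adjusted p = 0.074, edgeR), with an adjusted p of 0.0032 in DESeq2 and 0.0034 under total-count scaling. With the level of Xist as a term, which stands in for the sex of the animals, the change was 1.47 (adjusted p = 0.096). At E14.5 Tab3 had 92.7 to 447 scaled counts in controls (median 215) and 194, 271, 302, 249 and 230.2 in Isl1CKO, and the change was 0.14 ± 0.31 (adjusted p = 0.93). At an unadjusted p under 0.05, 3 of 7 genes of the set passed at P9, against 17.4% of all genes, and 1 of 7 at E14.5, against 11.4%. The median change over the tested genes of the set was -0.020 at P9 and 0.089 at E14.5, beside 0.023 and -0.0045 over all genes.

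**Figure D3:**
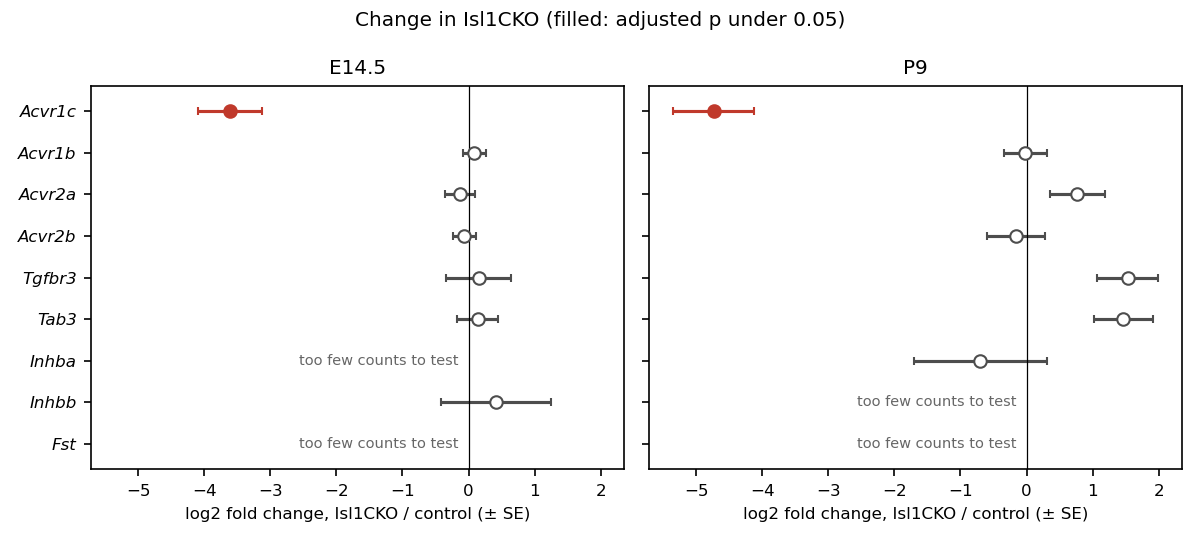
Log2 fold change of Isl1CKO over control with its standard error at E14.5 and P9 for each of the 9 genes, filled where the adjusted p was under 0.05. Acvr1c, at -3.61 and -4.73, is the only filled point at either age, and genes with too few counts carry no point.

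The ligand subunits and follistatin were near the limit of detection. Inhba, on chr13:16011851-16031621, encodes the beta A subunit. At E14.5 its reads were 3 to 46 in controls and 5, 2, 7, 4 and 3 in Isl1CKO, too few for the test. Fitted without a filter on low counts, the E14.5 change was -2.20 ± 0.72 (adjusted p = 0.26), and DESeq2 gave -2.23 ± 0.73 (adjusted p = 0.063). Beside it, the mesenchymal sums at E14.5 were 17.8 to 64.8 CPM in controls and 13.4 to 26.1 CPM in Isl1CKO, with 6 of 7 markers in the table (Lum was not), and their part was not tested. At P9 the scaled counts in controls were 5.82, 15.1, 121, 83.9 and 21.7, and Isl1CKO ranged from 3.49 to 114 (median 6.19). In both P9 groups a pair of libraries held most of the counts, and the change was -0.70 ± 1.01 (adjusted p = 0.80). The 2 high controls, libraries 3 and 4, were also those with the most mesenchymal markers (48.4 and 48.7 CPM, against 6.10 to 13.9 CPM in the other controls). Without them the change was 1.08 (adjusted p = 0.78). In the high Isl1CKO libraries 2 and 3 the mesenchymal sums were 25.9 and 8.36 CPM.

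Inhbb, on chr1:119415465-119422248, encodes the beta B subunit. At E14.5 it had 2.00 to 59.3 scaled counts in controls (median 16.5) and 8.58, 45.5, 25.7, 3.08 and 56.0 in Isl1CKO, a change of 0.41 ± 0.84 (adjusted p = 0.92). Reads at P9 were 1, 2, 3, 27 and 8 in controls and 1 to 8 in Isl1CKO, so that no difference was detectable at this depth. Fst, on chr13:114452290-114458951, had 1 to 7 reads in every E14.5 library. At P9 it had 2, 2, 52, 71 and 2 reads in controls and 2 to 15 in Isl1CKO. The reads of Fst in P9 controls thus came almost entirely from control libraries 3 and 4, as for Inhba, and the part of mesenchymal cells in this was not tested. Fitted without a filter on low counts, Fst changed by -2.52 ± 1.04 at P9 (adjusted p = 0.26) and Inhbb by -2.03 ± 0.91 (adjusted p = 0.31).

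The log2 ratio of Inhbb to Fst counts sets ligand against inhibitor within a library. It was 2.05 ± 1.41 (SD, n = 6) in E14.5 controls and 2.72 ± 1.82 (n = 5) in Isl1CKO, a difference of 0.67 ± 1.00 (SE, exact permutation p = 0.51). At P9 the means were -0.82 ± 1.95 (n = 5) and -0.86 ± 1.22 (n = 6), a difference of -0.041 ± 1.01 (exact permutation p = 0.97) whose sign turned to 0.23 when 5 counts in place of 1 were added.

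Levels of different genes were compared on one scale per kilobase of exon over all 22 libraries. In E14.5 controls the mean level was 6.91 ± 1.95 CPM per kb (SD) for Acvr1c, 6.51 ± 1.29 for Acvr2b, 6.21 ± 0.87 for Acvr2a and 4.25 ± 0.91 for Acvr1b, and these ranges overlapped. Tab3 followed at 2.12 ± 1.14 and Tgfbr3 at 1.14 ± 0.83. The ligand genes were lower, at 0.30 ± 0.31 for Inhbb and 0.19 ± 0.15 for Inhba, and Fst was lowest at 0.036 ± 0.031. In P9 controls Acvr1c was at 5.03 ± 1.90, Acvr2b at 4.98 ± 2.66, Acvr1b at 4.39 ± 0.84 and Acvr2a at 3.09 ± 2.11. The P9 control means of Inhba (0.92 ± 0.93), Fst (0.84 ± 1.11) and Inhbb (0.29 ± 0.41) were lower, with a spread as large as the mean, and in control library 3 Inhba, at 2.25, was above Acvr2a, at 1.82. In Isl1CKO Acvr1c dropped to 0.57 ± 0.38 at E14.5 and 0.19 ± 0.16 at P9. Its range overlapped that of Inhbb in both groups, and at P9 its mean was below that of Inhba (0.57 ± 0.83), whose range it overlapped too.

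Between ages, control levels differed for 2 of the 8 genes tested, against 31% of all 17265 genes. Acvr2a was lower at P9 than at E14.5 (log2 fold change -1.0 ± 0.36, adjusted p = 0.035) and so was Tab3 (-1.11 ± 0.38, adjusted p = 0.029). Both calls lay near the threshold, and neither held in every fit with 1 library left out. Acvr2a lost its call when any of 7 control libraries (E14.5 libraries 1 to 4 or P9 libraries 1 to 3) was left out, with adjusted p up to 0.089. Tab3 lost its call when E14.5 control library 4 or P9 control library 1, 2 or 4 was left out, with adjusted p up to 0.11. Inhba, an activin subunit, had a higher P9 level by 2.28 ± 0.90 that did not pass (adjusted p = 0.057), and Acvr1c differed by -0.46 ± 0.51 (adjusted p = 0.54). The effect of genotype did not differ between ages for any of the 8 genes by edgeR, against 2.08% of all genes. The difference for Acvr1c, P9 minus E14.5, was -1.13 ± 0.76 (adjusted p = 0.53), and Tab3 had the smallest p, with a difference of 1.34 ± 0.53 (adjusted p = 0.21). It was the only one of the 8 at an unadjusted p under 0.05; DESeq2, which called 4.63% of all genes, called 0 of them.

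The rest of the pathway was followed in a list of 80 further genes: other ligands, receptors, coreceptors, extracellular regulators, SMADs and their partners, the TAK1 arm and induced targets. At E14.5 none of the 50 tested passed in edgeR, against 1.43% of all genes; 7 of 50 had an unadjusted p under 0.05, against 11.4% of all genes, and DESeq2, which called 3.25% of all genes, called 3 (Nog, Ppm1a and Thbs1). At P9, 3 of 47 rose and 1 fell, against 2.66% and 2.14% of all genes, and 11 of 47 had an unadjusted p under 0.05, against 17.4%. The median change was -0.098 at E14.5 and 0.11 at P9, beside -0.0045 and 0.023 over all genes. Total-count scaling called 18 at P9, where it called 28.5% of all genes.

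The gene with the largest change was Bmp2, a ligand of the related BMP branch. Its P9 scaled counts were 2.33, 2.52, 2.32, 2.66 and 8.68 in controls and 18.3 to 126 (median 87.7) in Isl1CKO. The groups did not overlap, and the rise was 4.31 ± 0.74 on the log2 scale (adjusted p = 0.0030). Id4, which encodes an inhibitor of helix-loop-helix factors and is a common target of BMP signals, had 107, 210.3, 116, 188 and 258 in controls and 376 to 820.3 (median 484) in Isl1CKO, a rise of 1.56 ± 0.29 (adjusted p = 0.0055). Without control libraries 3 and 4 the Id4 change was 1.43 (adjusted p = 0.058). Of its family in the list, Id2 was at 0.89 ± 0.25 (adjusted p = 0.058, edgeR), Id1 at -1.22 ± 1.22 and Id3 at -0.40 ± 0.72. The median change over the 8 tested induced targets at P9 was -0.37. Beside Bmp2 and Id4, the endothelial, duct and endocrine progenitor marker sums were higher in P9 Isl1CKO without overlap, as given above, and their part was not tested.

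Skil encodes SnoN, a repressor that binds SMADs. It had 546, 705, 601, 683 and 744 scaled counts in P9 controls and 1059.8 to 1605 (median 1289) in Isl1CKO, a rise of 1.01 ± 0.15 (adjusted p = 0.0012), with no overlap. Igsf1, an X-linked gene for a membrane glycoprotein once proposed as an inhibin-binding protein, was the one that fell. Its controls had 823, 1029.7, 947, 1241 and 1062 scaled counts and its Isl1CKO libraries 165 to 463 (median 223), a change of -1.91 ± 0.28 (adjusted p = 7.8e-04). In the other roles the smallest p belonged to the type I receptor Tgfbr1 (-0.73 ± 0.22, adjusted p = 0.070), the Nodal inhibitor Lefty1 (-2.61 ± 1.04, adjusted p = 0.19), the inhibitory Smad7 (1.16 ± 0.44, adjusted p = 0.16) and the TAK1 gene Map3k7 (0.54 ± 0.22, adjusted p = 0.20), none of which passed in edgeR.

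**Figure D4:**
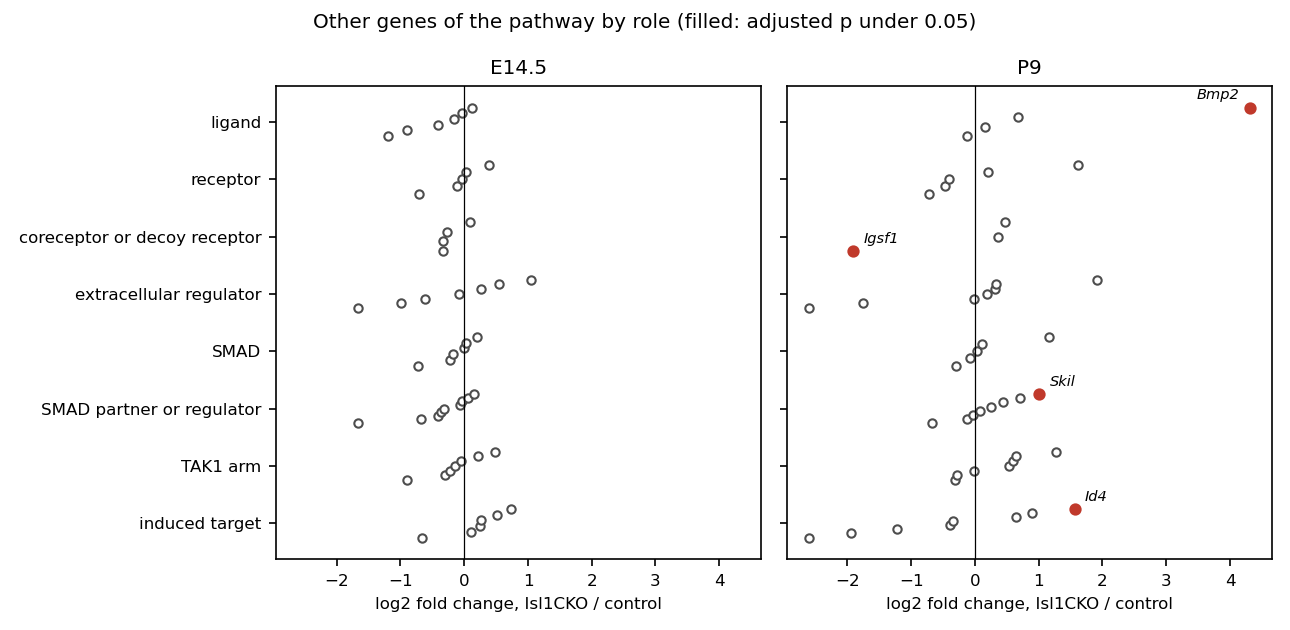
Log2 fold change of Isl1CKO over control at E14.5 and P9 for the tested genes of the 80-gene pathway list, one point per gene, grouped by role and filled where the adjusted p was under 0.05. No point is filled at E14.5, and at P9 Bmp2 (4.31), Id4 (1.56) and Skil (1.01) are filled on the right and Igsf1 (-1.91) on the left.

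Genes around Acvr1c were examined within 500 kb on either side, where 14 other genes are annotated. Of these, 5 were tested at E14.5 and 4 at P9, and they were added after the values were seen. The next coding neighbour of Acvr1c downstream, Cytip, a gene for a cytohesin-binding protein of white blood cells that lies 71.9 kb away, also fell at E14.5. Its scaled counts were 362 to 836 in controls (median 549) and 113, 96.1, 76.1, 30.8 and 35.0 in Isl1CKO, a change of -3.04 ± 0.34 (adjusted p = 3.1e-04) with no overlap. The macrophage marker sums were 37.9 to 54.3 CPM in E14.5 controls and 36.9 to 114 CPM in Isl1CKO, with all 7 markers in the table and none at 0 in either group, and the part of white blood cells was not tested. At P9 Cytip had 16.3, 123, 36.0, 14.6 and 8.68 scaled counts in controls and 7.39 to 15.6 in Isl1CKO, and the change was -1.94 ± 0.71 (adjusted p = 0.15). On the other side Acvr1, a BMP and activin type I receptor gene 30.7 kb away, was at -0.70 ± 0.23 at E14.5 (adjusted p = 0.21) and -0.41 ± 0.30 at P9 (adjusted p = 0.56). Ccdc148, 463 kb away, had a change of -1.05 ± 0.22 at E14.5 (adjusted p = 0.027) and 0.32 ± 0.44 at P9 (adjusted p = 0.79). Upp2 was at -1.01 ± 0.54 at E14.5 (adjusted p = 0.52, edgeR) and -0.77 ± 0.69 at P9 (adjusted p = 0.65). The antisense gene Gm13544 was at -1.30 ± 0.94 at E14.5 (adjusted p = 0.67). Over all genes, 1.43% were called at E14.5.

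**Figure D5:**
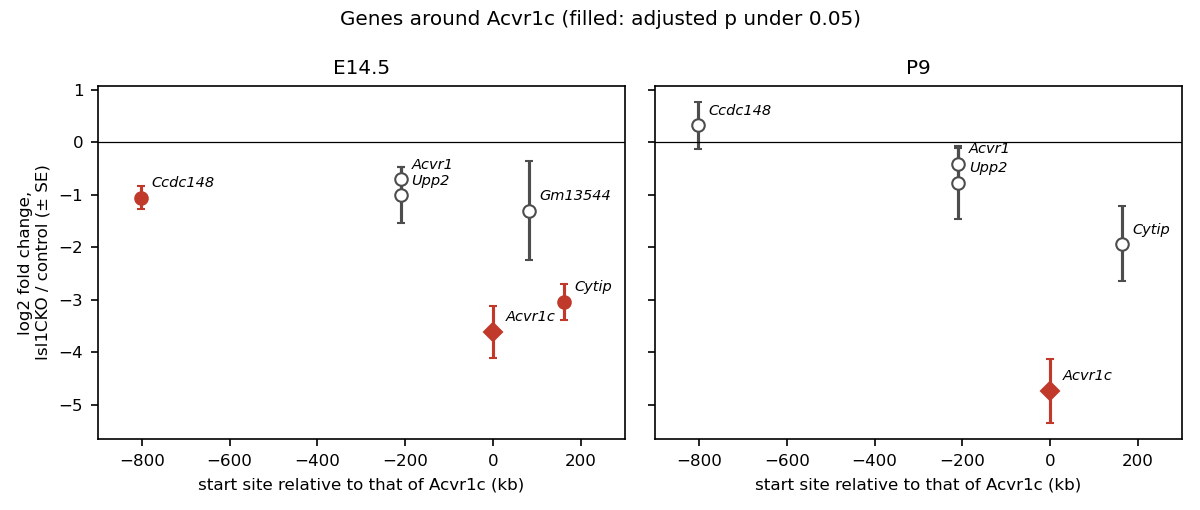
Log2 fold change of Isl1CKO over control with its standard error for the tested genes around Acvr1c, against the distance of their start sites from that of Acvr1c in kilobases, positive in the direction of Acvr1c transcription. At E14.5 Acvr1c (-3.61), Cytip (-3.04) and Ccdc148 (-1.05) are filled, and at P9 only Acvr1c (-4.73).

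Over all 22 libraries and 9094 genes with a mean of at least 10 CPM, genes whose log2 CPM followed Acvr1c most closely included Slc7a14 (Pearson r = 0.90), Pdx1 (0.87), Ap1s2 (0.85) and Tmsb15l (0.84). Pdx1 encodes a transcription factor of pancreas development and beta cells, Slc7a14 a membrane transporter, Ap1s2 an adaptor subunit of vesicle traffic and Tmsb15l a thymosin. These values describe libraries that share groups, scaling and depth, and carry no test. Each of these 4 was called lower in Isl1CKO at both ages. They were chosen for following Acvr1c over libraries of both genotypes, between which Acvr1c itself differed widely. Their lower level was thus favoured by the choice and is not a separate result. The changes were smaller than those of Acvr1c: Slc7a14 changed by -0.92 at E14.5 and -0.97 at P9, and Pdx1 by -0.71 and -1.46. Within the set, Acvr1b had r = -0.0042 with Acvr1c, Acvr2b 0.20, Acvr2a -0.13, Tab3 -0.40 and Tgfbr3 -0.49.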

How the data were processed

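Per the labels and methods, the authors trimmed reads with cutadapt (1.18) and Trimmomatic, removed rRNA, aligned with STAR (2.7.0c) to GRCm38 and counted uniquely mapped reads per gene with Rsubread, without regard to strand as far as stated. The deposited counts are raw; genes with fewer than 10 counts over a table are not listed. Multimapping reads were left out, which can lower genes with close copies.

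The 9 genes and the pathway and marker lists were chosen with earlier results of these data known; neighbours within 500 kb were added after the values were seen. The text names the 9 genes, pathway genes called at either age and, in roles without one, the gene of smallest p at P9, and 4 of the 5 genes most like Acvr1c; the other is not reported here. Id1, Id2 and Id3 are given beside Id4. Positions and exon lengths are from GENCODE M21.

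Tests used edgeR (4.0.16; TMM, filterByExpr, quasi-likelihood) within each age, and over 22 libraries for ages, with Benjamini-Hochberg adjustment over all genes and a threshold of 0.05; SE is the change divided by the root of F. Tests were tried on simulated counts. Scaled counts are counts per TMM-scaled library, times the mean size at that age. Ratios used exact permutation tests (scipy 1.17.1). Alternatives were DESeq2 (1.42.0), limma-voom (3.58.1), other scalings, no filter, Xist as a term, a replicate block and single libraries left out.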

Additional observations from a re-analysis of the deposited data

Results flagged for a closer look

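The effect of Isl1CKO on Skil, the gene for a SMAD-binding repressor, differed between the ages by a test of the difference itself: the log2 change at P9 exceeded that at E14.5 by 0.95 ± 0.17 (edgeR interaction, adjusted p = 0.0037). Skil changed by 0.065 ± 0.097 at E14.5 (adjusted p = 0.88) and by 1.01 ± 0.15 at P9. In this test 1 of 62 tested genes of the pathway list was called, against 2.08% of all genes. The 36 sets of libraries (9 genes in 4 groups, log2 scaled counts) were also checked for a single outlying library, and none passed Dixon's critical value, also not the low Acvr1c value of E14.5 Isl1CKO library 5.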

How the results depend on the processing

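Acvr1c was called lower at both ages under every alternative run, from -4.20 to -3.48 at E14.5 and from -5.25 to -4.10 at P9. The number of the 9 genes called at P9 was 1, and became 3 with DESeq2 (Acvr1c, Tab3 and Tgfbr3), 4 with total counts (with Acvr2a), 2 with the replicate block and 1 to 2 with single libraries left out (Tgfbr3 was added without Isl1CKO library 3). Of all genes at P9, edgeR with TMM called 4.81%, DESeq2 9.11%, total counts 28.5% and the replicate block 2.48%. The number differing between ages in controls, 2, became 4 with DESeq2, 5 with total counts, 3 without a filter (with Fst), 1 with limma-voom and 0 to 3 with single libraries left out. Of all genes in this contrast of ages, DESeq2 called 29.6%, total counts 61.6%, the fit without a filter 23.9% and limma-voom 32.7%. Total counts called 2 differences of effect between ages, and 18.5% of those of all genes. For the pathway list, calls at E14.5 (0) became 3 with DESeq2, 1 without a filter, 2 without the 2 libraries richest in macrophage markers (chosen after seeing the data) and 0 to 1 with single libraries left out. Of all genes at E14.5, DESeq2 called 3.25%, the fit without a filter 0.649% and the fit without those 2 libraries 0.617%. At P9 the pathway calls went from 4 to 7 with DESeq2 and 18 with total counts, and to 3 with the replicate block (Bmp2 had 4.17, adjusted p = 0.056), beside the P9 shares of all genes given above. The cause of these changes was not tested.

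Replicate numbers did not pair the libraries: same-numbered deviations correlated at -0.049 to 0.054 at E14.5 and -0.022 to 0.049 at P9, and 1 of 5 and 2 of 5 controls correlated best with their own number. With the block, all genes called went from 228 to 134 at E14.5 and from 671 to 336 at P9. Within pairs the Acvr1c to Acvr1b ratio changed by -4.21 and -4.81, with exact p = 0.0625, the smallest that 5 pairs allow.

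Signs that turned belonged to changes that edgeR with TMM did not call. With total counts these were Acvr1b at P9 (0.64), between ages in controls (-1.13) and in the difference of effects (0.53), Acvr2b at P9 (0.51) and in the difference of effects (0.56), and Tgfbr3 between ages (-0.20). Without a filter Acvr1b was 0.0036 at P9 and -0.075 between ages, without the hormone genes in the totals it was -0.061 between ages, and with the block it was 0.016 at P9 and Acvr2b 0.048 in the difference of effects. Inhba at P9 was 1.08 without control libraries 3 and 4. The Inhbb to Fst ratio at P9 was 0.23 with 5 counts added, 0.57 from summed counts and -0.77 to 0.56 with single libraries left out. With single libraries left out, E14.5 changes ranged from -0.0056 to 0.16 for Acvr1b, -0.38 to 0.045 for Acvr2a, -0.19 to 0.025 for Acvr2b, -0.11 to 0.44 for Tgfbr3, -0.0090 to 1.07 for Inhbb, -0.026 to 0.45 for Tab3, -0.19 to 0.0093 for Tgfbr1, -0.45 to 0.020 for Smad7 and -0.12 to 0.026 for Map3k7. At P9 they ranged from -0.17 to 0.077 for Acvr1b and -0.40 to 0.023 for Acvr2b, in the difference of effects from -0.33 to 0.10 for Acvr2b, and between ages from -0.046 to 0.13 for Acvr1b and -1.42 to 0.59 for Inhbb. Depth limits Fst, Inhba and Inhbb most, with as few as 1 to 3 reads in many libraries.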
